A study of Homo sapiens with 6 samples.

Results

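The genes described are the 5 subunits of the transcription factor NF-kB (NFKB1, NFKB2, REL, RELA and RELB), 3 classical inhibitors that hold it in the cytoplasm (NFKBIA, NFKBIB and NFKBIE), and 2 regulators of its output (NFKBIZ and TNFAIP3). They were chosen by gene symbol, and all 10 were among the 17911 genes of the deposited table. RNA was sequenced from HL-60, an established human promyelocytic leukaemia line. Cells treated with 10 uM amiodarone for 24 h gave 3 libraries, and cells labelled only as control, with no word on a vehicle, gave the other 3. Amiodarone is a lipophilic drug against cardiac arrhythmia that accumulates in lysosomes. No label ties the 3 libraries of a group to separate cultures, so p-values rest on a spread between libraries that may be purely technical.

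NF-kB proteins bind DNA as dimers. NFKB1 and NFKB2 encode precursors that are trimmed to the DNA-binding proteins p50 and p52, whereas RELA, RELB and REL carry the domains that activate transcription. In resting cells IkB proteins mask the dimers until the IkB kinase (IKK) marks them for destruction, and in myeloid cells the freed dimers switch on cytokine, chemokine and survival genes. Among the genes switched on are several of the pathway's own, such as NFKBIA and TNFAIP3, which are known as negative feedback.

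After amiodarone, transcripts of 9 of the 10 genes were higher and those of RELA were lower. Of the 9, NFKBIB hardly differed (1.08-fold): its groups overlapped and its call ended under several alternatives. Values are RPKM-like, that is, read numbers scaled for gene length and sequencing depth, as far as the table lets this be judged. The largest ratios of group means were 3.72-fold for NFKBIZ, 2.57-fold for NFKBIA and 2.12-fold for TNFAIP3. RELB and NFKB2 followed at 1.96-fold and 1.81-fold, and RELA stood at 0.822 times its control level. Called means an adjusted p under 0.05 (limma on log2(value + 1), Benjamini-Hochberg over 11445 tested genes). Of all tested genes 78.3% were called, 33.5% higher and 44.8% lower, so being called is common here. The split into higher and lower depends on the scaling, as given in the closing sections. The sizes of the changes are given against all genes below. All 10 genes had a value of at least 1 in every library, so each passed the filter on low values through both groups.

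**Figure D1:**
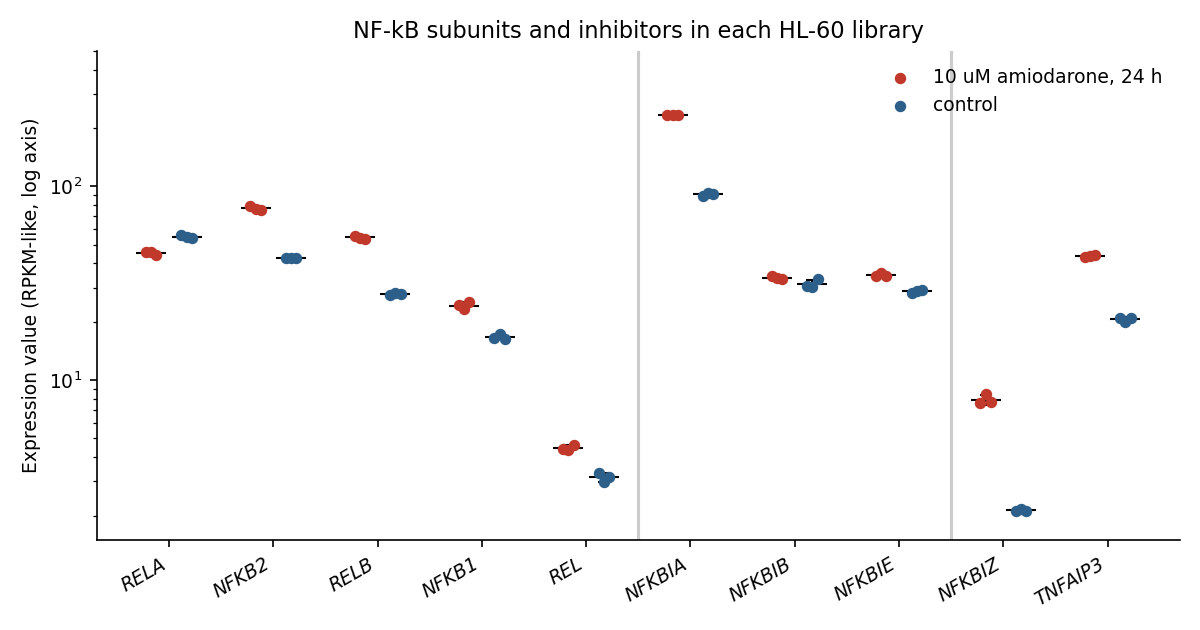
Expression value (RPKM-like, log axis) of each of the 10 genes in the 3 amiodarone libraries (red, left) and the 3 control libraries (blue, right), with group means and SD as black lines; grey lines part the subunits, the inhibitors and the other regulators. The amiodarone points lie above the control points for 8 genes, below them for RELA, and among them for NFKBIB.

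Promoter sequences are shown because several of these genes are textbook targets of NF-kB itself. The RefSeq promoter table (GRCh38.p14; 250 bases before to 50 after each start) held 14 promoters of 8 of the 10 genes, all but RELB and NFKBIE. The 10-base kB consensus was searched on both strands. At least 1 match was found in 9 of these 14 promoters and in 7 of the 8 genes, beside 11.3% of all 35116 promoters and 13.3% of all 27305 genes in the table. For genes that were tested here the shares were 13.4% of promoters and 17.1% of genes. RELA, the gene that was lower, had no match in either of its 2 promoters, which says only that these letters are not in those windows. A match is a description of the sequence, and binding was not measured.

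The 30-base windows around the matches are given below on the strand of the gene. Matches in overlapping frames are joined into 1 stretch, and each window has only its own stretch in capitals. The windows of TNFAIP3 overlap, so each also holds bases of the other match in lower case.
NFKBIA, chr14:35404811-35404840, minus strand: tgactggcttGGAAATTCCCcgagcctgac
TNFAIP3, chr6:137867182-137867211, plus strand: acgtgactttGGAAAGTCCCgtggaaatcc
TNFAIP3, chr6:137867194-137867223, plus strand: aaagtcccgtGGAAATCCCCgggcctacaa
NFKBIZ, chr3:101827757-101827786, plus strand: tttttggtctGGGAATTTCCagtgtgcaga
NFKBIZ, chr3:101849265-101849294, plus strand: gcgcgctgtcGGGGTTTCCCggtgaagggc
NFKB2, chr10:102394462-102394491, plus strand: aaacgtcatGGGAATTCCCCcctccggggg
NFKB2, chr10:102394490-102394519, plus strand: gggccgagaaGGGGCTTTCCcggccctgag
NFKB2, chr10:102395674-102395703, plus strand: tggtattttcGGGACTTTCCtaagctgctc
NFKB1, chr4:102501300-102501329, plus strand: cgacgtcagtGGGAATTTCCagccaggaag
REL, chr2:60881518-60881547, plus strand: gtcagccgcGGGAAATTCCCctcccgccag
NFKBIB, chr19:38899932-38899961, plus strand: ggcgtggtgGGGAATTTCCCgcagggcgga

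The same stretch, GGGAATTTCC, stands in the windows of NFKB1, NFKBIZ and NFKBIB, although these genes differed in ratio of means (1.45-fold, 3.72-fold and 1.08-fold). Read on the opposite strand, as GGAAATTCCC, it also stands in the windows of NFKBIA (2.57-fold) and REL (1.42-fold). In NFKBIA the match lies 81 to 72 bases before the start. In TNFAIP3 a pair of matches lies 67 to 58 and 55 to 46 bases before the RefSeq start. In REL the stretch lies 47 to 37 bases before the RefSeq start. The GENCODE starts of TNFAIP3 (137867188) and REL (60881521) differ from these RefSeq starts and lie upstream of the matches. Counted from the GENCODE starts, the matches of both genes thus lie inside the gene. A further stretch was found in the third promoter of NFKB2, and another in the second promoter of NFKBIB, after its start; neither is printed. The 250 bases before the NFKBIA start are given in full, since this gene had the highest level of the 10 in both groups.
NFKBIA, chr14:35404750-35404999, minus strand: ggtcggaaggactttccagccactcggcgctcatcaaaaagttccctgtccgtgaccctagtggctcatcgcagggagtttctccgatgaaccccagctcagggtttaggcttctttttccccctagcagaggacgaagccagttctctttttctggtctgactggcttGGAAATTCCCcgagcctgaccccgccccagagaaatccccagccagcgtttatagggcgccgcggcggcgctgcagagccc

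Among the subunits, the pair of the non-canonical pathway changed most. RELB, the partner of p52 in that pathway, had values of 55.5, 54.1 and 53.8 in the amiodarone libraries and 27.4, 28.1 and 27.9 in the control libraries. Every amiodarone library was above every control library, with a log2 fold change of 0.95 (SE 0.0298; limma, adjusted p = 4.21e-10). NFKB2, which encodes the p52 precursor p100, an inhibitor in its own right before it is trimmed, had 78.7, 76.7 and 75.5 after amiodarone and 42.7, 42.6 and 42.6 in controls. Again no library of one group reached the other, and the log2 fold change was 0.84 (SE 0.0276; limma, adjusted p = 6.04e-10). NFKB2 lies on chromosome 10 at 102394110 to 102402529 on the plus strand, and RELB on chromosome 19 at 45001430 to 45038198 on the plus strand (GENCODE 29, GRCh38).

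The subunits of the canonical pathway moved in both directions. NFKB1, which encodes the p50 precursor p105, had 24.4, 23.2 and 25.2 in the amiodarone libraries and 16.5, 17.2 and 16.3 in the control libraries. It was higher in each amiodarone library, by 0.51 on log2(value + 1) (SE 0.0407; limma, adjusted p = 5.76e-07). RELA, the main activating partner of p50, had 45.6, 46.0 and 44.2 after amiodarone and 56.1, 54.9 and 54.2 in controls. It was the one gene of the 10 that fell, with every amiodarone library below every control library and a log2 fold change of -0.28 (SE 0.0296; limma, adjusted p = 6.52e-06). Its direction was the same under each of the scalings tried, and 68.5% of all tested genes had a higher log2 fold change.

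REL, the subunit c-Rel of blood cells, was the least abundant subunit in both groups. Its values were 4.39, 4.37 and 4.63 after amiodarone and 3.30, 2.99 and 3.17 in controls. The groups did not overlap, and REL rose by 0.40 on log2(value + 1) (SE 0.0577; limma, adjusted p = 7.65e-05). In GENCODE 29, 43.3% of its exonic bases are shared with AC010733.2, a non-coding gene on the same strand at its 3' end, so reads there cannot be assigned to REL alone. NFKB1 lies on chromosome 4 at 102501329 to 102617302 (plus strand), RELA on chromosome 11 at 65653596 to 65663094 (minus strand) and REL on chromosome 2 at 60881521 to 60931610 (plus strand).

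The make-up of the subunit transcripts, a measure that no scaling between libraries can alter, differed between the groups. RELA made up 21.9%, 22.5% and 21.7% of the summed subunit values in the amiodarone libraries and 38.4%, 37.6% and 37.6% in the control libraries. It was the largest share in every control library and the third largest in every amiodarone library. NFKB2 held 37.5% ± 0.301 after amiodarone and 29.3% ± 0.185 in controls, and RELB 26.5% ± 0.0911 and 19.1% ± 0.323 (amiodarone and control, SD, n = 3 each). The shares of NFKB1 (11.8% ± 0.530 after amiodarone, 11.5% ± 0.279 in controls) and REL (2.17% ± 0.0925 and 2.17% ± 0.108 in the same order) overlapped between the groups. The ratio of RELB to RELA was 1.22, 1.17 and 1.22 in the amiodarone libraries and 0.488, 0.512 and 0.515 in the control libraries. RELB was thus above RELA in each amiodarone library and below it in each control library. The ratio of NFKB2 to NFKB1 was 3.18 ± 0.160 after amiodarone and 2.56 ± 0.0717 in controls.

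**Figure D2:**
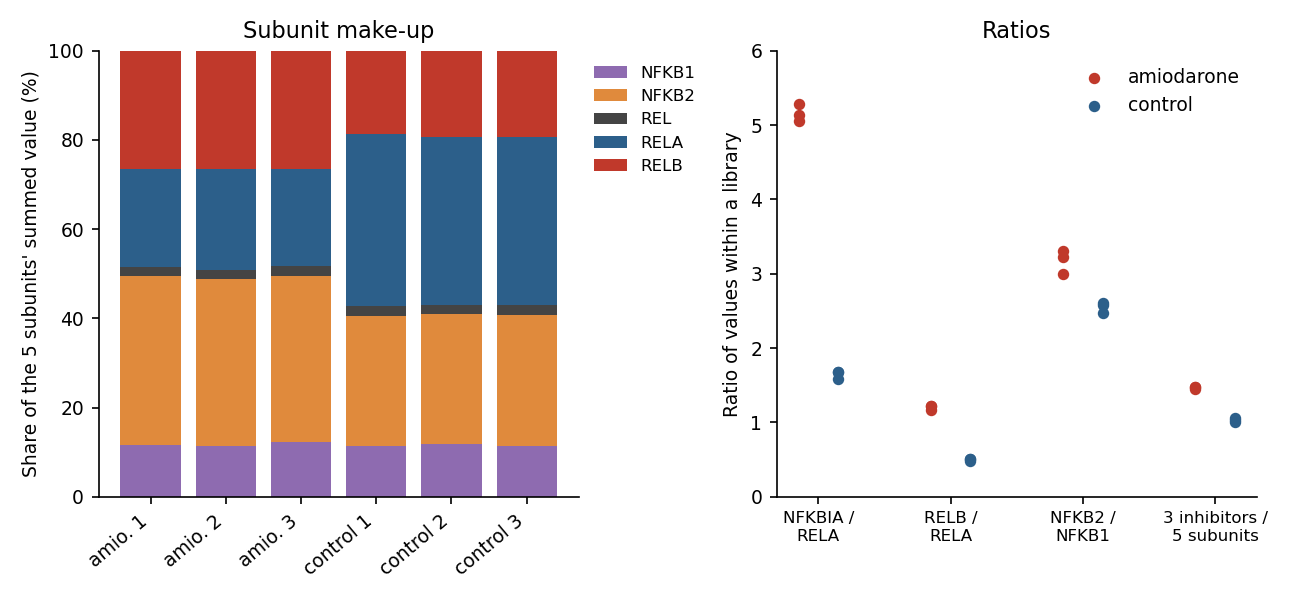
Left, share (%) of each subunit in the summed RPKM-like values of the 5 subunits, with 1 bar per library, amiodarone libraries left of control libraries. Right, ratios of values within each library, with 1 point per library (amiodarone red, control blue). RELA takes 21.7% to 22.5% of the sum in the amiodarone libraries and 37.6% to 38.4% in the control libraries, and the NFKBIA to RELA ratio lies above 5 in the first and below 2 in the second.

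The 3 classical inhibitors differed in the size of their change. NFKBIA, which encodes IkB alpha, the inhibitor that is resynthesised after NF-kB activation, had values of 234, 233 and 234 in the amiodarone libraries and 89.3, 92.0 and 91.2 in the control libraries. It lay far above the controls in each amiodarone library, with a log2 fold change of 1.35 (SE 0.0232; limma, adjusted p = 5.42e-12), and 0.987% of all tested genes had a larger one. NFKBIE, which encodes IkB epsilon, had 34.52, 35.78 and 34.37 after amiodarone and 28.03, 28.98 and 29.05 in controls. The groups were apart, but the log2 fold change was only 0.27 (SE 0.0326; limma, adjusted p = 1.54e-05).

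NFKBIB, which encodes IkB beta, hardly differed. Its values were 34.6, 33.6 and 33.1 in the amiodarone libraries and 30.7, 30.3 and 33.2 in the control libraries. The groups overlapped, since the highest control library was above the lowest amiodarone library. The log2 fold change was 0.10 (95% interval 0.0167 to 0.190; limma, adjusted p = 0.0314). This call ended without control replicate 1 (adjusted p = 0.0969), without control replicate 2 (0.124), without amiodarone replicate 1 (0.0917) and without amiodarone replicate 2 (0.0585), all with limma. It also ended when values were scaled to equal sums (log2 fold change 0.015, adjusted p = 0.739) and with a replicate block (adjusted p = 0.0529, limma). NFKBIB lies on chromosome 19 at 38899700 to 38908893 and shares 1.72% of its exonic bases with SIRT2 on the opposite strand. NFKBIA lies on chromosome 14 at 35401511 to 35404749 (minus strand) and NFKBIE on chromosome 6 at 44258166 to 44265788 (minus strand).

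NFKBIA took a larger share of the inhibitor transcripts after amiodarone. It made up 77.2%, 77.1% and 77.6% of the summed values of the 3 inhibitors in the amiodarone libraries and 60.3%, 60.8% and 59.4% in the control libraries. NFKBIB accounted for 11.2% ± 0.210 and 20.8% ± 0.805 of that sum (amiodarone and control, SD, n = 3 each). The sum of the inhibitors stood at 302 ± 0.967 after amiodarone and 151 ± 2.72 in controls, and that of the subunits at 205 ± 2.87 and 145 ± 0.961 in the same order. The ratio of inhibitor to subunit transcripts was 1.45, 1.48 and 1.48 in the amiodarone libraries and 1.01, 1.04 and 1.06 in the control libraries. For NFKBIA over RELA alone the ratio was 5.14, 5.06 and 5.29 after amiodarone and 1.59, 1.68 and 1.68 in controls. These are ratios of transcript values per length, and protein levels were not measured.

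The regulators NFKBIZ and TNFAIP3 were both higher. NFKBIZ encodes IkB zeta, an atypical nuclear IkB protein that acts with p50 at the promoters of secondary response genes, such as IL6 in mouse cells. Its values were 7.66, 8.43 and 7.67 in the amiodarone libraries and 2.11, 2.16 and 2.11 in the control libraries. The groups were far apart, with a log2 fold change of 1.51 (SE 0.0571; limma, adjusted p = 1.70e-09), and 0.708% of all tested genes had a larger one. At the estimated depth these values stand for about 490 to 536 reads in the amiodarone libraries and 144 to 162 in the control libraries, so its level rests on fewer reads than that of any other of the 10 genes. TNFAIP3, a ubiquitin-editing enzyme that shuts off signalling upstream of IKK, had 43.36, 43.62 and 44.36 after amiodarone and 21.00, 20.02 and 20.79 in controls. Each amiodarone library was above each control library, and the log2 fold change was 1.05 (SE 0.0324; limma, adjusted p = 3.55e-10). NFKBIZ lies on chromosome 3 at 101827991 to 101861022 and TNFAIP3 on chromosome 6 at 137867188 to 137883312, both on the plus strand.

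The sizes of the changes were set against those of all tested genes. NFKBIZ, NFKBIA and TNFAIP3 were called and at least 2-fold higher on log2(value + 1), as were 2.55% of all tested genes. For the low gene NFKBIZ this depends on the pseudocount. With a pseudocount of 5 its log2 fold change was 0.86, below the 1.32 of NFKBIA and the 0.93 of TNFAIP3. Of the 3 genes NFKBIA alone was then still at least 2-fold higher. Being at least 2-fold higher depends on the scaling too. TNFAIP3 was at 0.96 with equal sums, while RELB reached 1.02 by the median of ratios and 1.03 with TMM-like factors. The share of tested genes with a larger log2 fold change was 2.31% for TNFAIP3, 4.23% for NFKB2, 11.4% for NFKB1, 16.2% for REL, 23.1% for NFKBIE and 35.4% for NFKBIB, and RELB ranked 344th from the top. The groups did not overlap for 9 of the 10 genes, 8 higher and 1 lower after amiodarone, where 79.3% of all tested genes were apart, 34.0% with amiodarone higher and 45.3% with amiodarone lower. The median log2 fold change was 0.68 over the 10 genes and -0.06 over all tested genes.

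**Figure D3:**
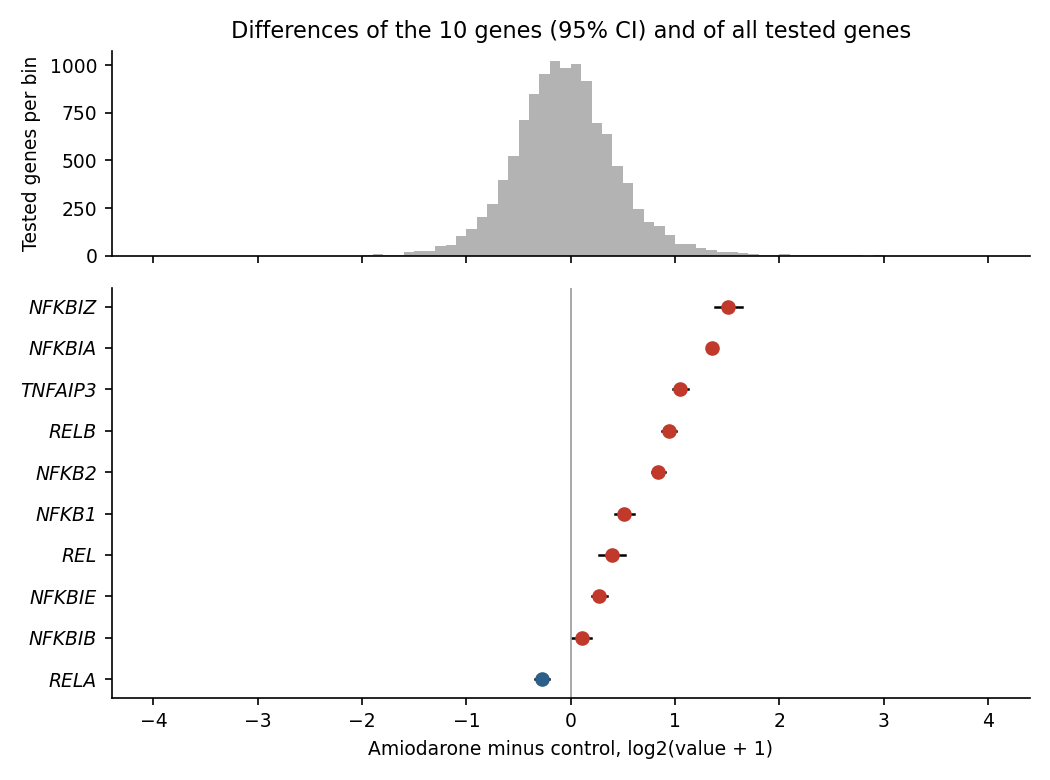
Top, number of tested genes by difference between amiodarone and control on log2(value + 1). Bottom, the same difference for the 10 genes (points) with 95% intervals from limma (lines). NFKBIZ at 1.51 and NFKBIA at 1.35 lie in the right tail of all genes, NFKBIB at 0.10 lies near 0, and RELA at -0.28 is the one gene below 0.

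The order of the levels changed with treatment. After amiodarone it ran NFKBIA, NFKB2, RELB, RELA, TNFAIP3, NFKBIE, NFKBIB, NFKB1, NFKBIZ and REL, with group means of 234 at the top and 4.46 at the bottom. In this order the libraries of RELA and TNFAIP3 overlapped, and so did those of NFKBIE and NFKBIB. In controls the order was NFKBIA, RELA, NFKB2, NFKBIB, NFKBIE, RELB, TNFAIP3, NFKB1, REL and NFKBIZ, with means of 90.8 at the top and 2.13 at the bottom. There only the neighbours NFKBIE and RELB overlapped. The values are per length, which allows this comparison between genes, although the labels do not state which gene lengths the table used. The place of REL is less sure in both orders, as 43.3% of its exonic bases are shared with AC010733.2.

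Genes of the pathway outside the 10 were taken from 4 lists of its kinases, adaptors, further regulators and targets. Of 35 textbook target genes, in a list chosen with earlier results of these data known, 32 were present and 29 were tested. CXCL1, SELE and PTGS2 had no entry. Of the 29, 28 (96.6%) were higher, none lower and 1 not called, beside 33.5% of all tested genes called higher. Given how the list was chosen, this share is no independent test. The median log2 fold change of the 29 was 0.81. Among the 28, PLAU rose by only 0.10 (limma, adjusted p = 0.0471) and overlapped between the groups. The chemokine genes CXCL8 (1786 ± 91.8 after amiodarone, 239 ± 4.06 in controls; log2 fold change 2.90, limma adjusted p = 3.47e-13) and CCL2 (867 ± 2.07 and 177 ± 7.17; 2.29, adjusted p = 5.01e-13) rose, as did CCL3 (102 ± 2.67 and 12.8 ± 0.747; 2.91, adjusted p = 1.56e-12). CCL3 has near-identical copies, and 74.6% of its exonic bases lie opposite the antisense gene AC243829.4. The gene that was not called was CD83, with 11.4 ± 1.01 after amiodarone and 12.7 ± 0.707 in controls (limma, adjusted p = 0.0687). The list then had 1 gene called lower when values were scaled to equal sums, with a replicate block and without amiodarone replicate 2. Of the tested targets 3 were below 1 in a control library and passed the filter on low values only with the help of amiodarone libraries, which favours a rise.

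Other IkB-like proteins and nuclear regulators were mostly higher. The median over the 8 tested was 0.33; 6 rose, 1 fell and 1 did not pass the test. Over all tested genes 33.5% were higher and 44.8% lower. BCL3, an atypical IkB protein that works with p50 and p52, had 40.2 ± 1.90 after amiodarone and 16.7 ± 0.555 in controls (log2 fold change 1.22; limma, adjusted p = 8.45e-10). NFKBIL1, an IkB-like gene, rose by 0.91 (adjusted p = 5.07e-08) and NKIRAS2, a small GTPase that binds IkB proteins, by 0.39 (adjusted p = 2.07e-07). NKRF, a repressor that binds beside NF-kB sites, had 8.16 ± 0.165 after amiodarone and 10.5 ± 0.406 in controls, a log2 fold change of -0.33 (adjusted p = 5.06e-05); 21.0% of its exonic bases lie opposite UBE2A. Without amiodarone replicate 1 the list had 2 genes called lower in place of 1.

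The list of upstream kinases, which also holds adaptors and a scaffold of kinases, moved in both directions. Of its 12 genes 7 were called higher and 4 lower, with a median of 0.15. Of all tested genes 33.5% were higher and 44.8% lower. Only 4 of the 12 were called higher when values were scaled to equal sums or without amiodarone replicate 2. TANK, an adaptor of the IKK-related kinases, rose 2.48-fold (log2 fold change 1.28; limma, adjusted p = 8.85e-11). TAB2, an adaptor of the kinase TAK1 that the table pairs with the Ensembl ID of a non-coding gene, rose by 0.52 (adjusted p = 3.86e-07), and MAP3K7, which encodes TAK1, rose by 0.26 (adjusted p = 6.77e-05). Those that fell included IKBKE (-0.28, adjusted p = 4.20e-04), IKBKG, the scaffold of the IKK complex, which has a near-identical pseudogene (-0.21, adjusted p = 0.00153), and MAP3K14, the NIK kinase of the non-canonical pathway. MAP3K14 had 1.93 ± 0.0458 after amiodarone and 2.67 ± 0.0635 in controls (-0.32, adjusted p = 4.76e-04), beside the rise of NFKB2 and RELB in the same libraries.

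Adaptors and ubiquitin enzymes were split, with 7 of 20 higher, 10 lower and 3 not called. These shares are close to those of all tested genes (33.5% higher and 44.8% lower). Their median was -0.06, and its sign is not settled, as it was 0.014 after scaling by the median of ratios. BIRC3, a ubiquitin ligase that restrains NIK and is itself a target of NF-kB, had 20.3 ± 0.662 after amiodarone and 4.16 ± 0.186 in controls (log2 fold change 2.05; limma, adjusted p = 4.68e-11). CYLD, a deubiquitinase that limits the pathway, had 16.0 ± 0.831 and 9.45 ± 0.871 in the same order (0.70, adjusted p = 1.52e-06). RBCK1 rose by 0.35 (adjusted p = 9.01e-07) whereas RNF31 had a log2 fold change of -0.62 (adjusted p = 5.13e-07), although their proteins are parts of the same linear ubiquitin ligase. UBE2N, a ubiquitin-conjugating enzyme, and its partner UBE2V1 had log2 fold changes of -0.70 (adjusted p = 1.03e-08) and -0.33 (adjusted p = 8.56e-07). Other annotated genes share 34.8% of the exonic bases of RNF31, 39.5% of those of UBE2N and 42.9% of those of UBE2V1.

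**Figure D4:**
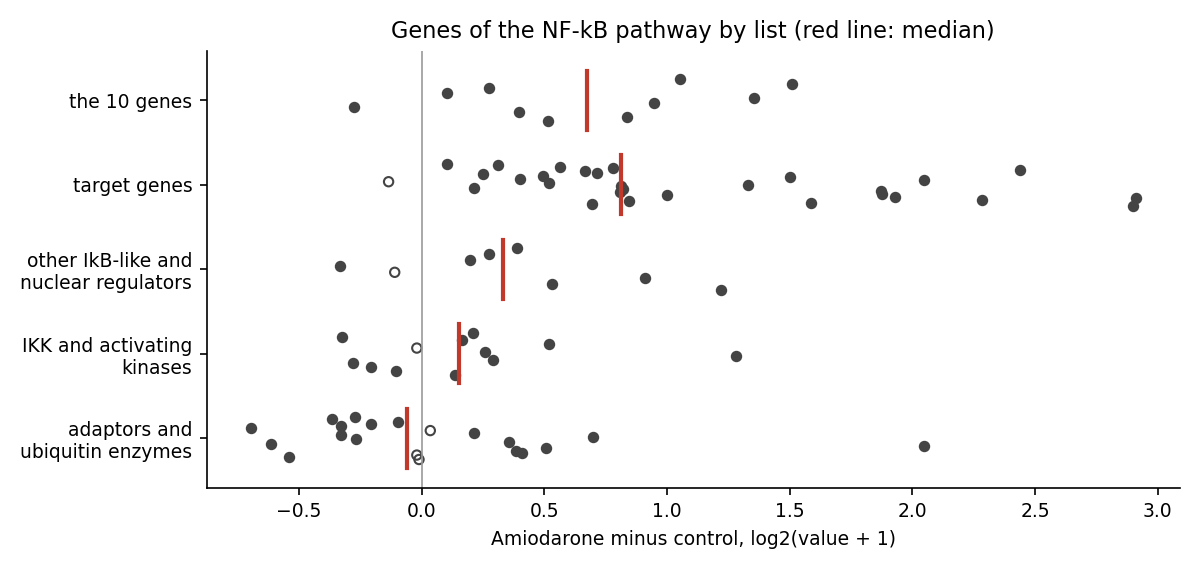
Difference between amiodarone and control on log2(value + 1) for each tested gene (points; filled where called, open where not) of the 10 genes and of the 4 pathway lists, with list medians as red lines. The target genes lie to the right, with a median of 0.81, and the adaptors and ubiquitin enzymes lie on both sides of 0; BIRC3 is in 2 of the lists.

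The tested genes with profiles most like those of the 3 largest changes were found by Euclidean distance between centred log2(value + 1) values over the 6 libraries. Nearest to NFKBIZ were BCL2A1 (distance 0.084), ADGRE1 (0.109), CDA (0.110), KRT86 (0.120) and NCF1 (0.120). BCL2A1, a survival gene of the BCL2 family that is also on the target list, had 180 ± 2.05 after amiodarone and 63.0 ± 0.592 in controls. Nearest to NFKBIA were LIMS1 (0.063), the integrin gene ITGAM (0.068), the ferritin gene FTH1 (0.069), CDKN1A (0.081) and GK (0.083). Nearest to TNFAIP3 were CDC42EP3 (0.039), DMXL2 (0.059), BNIP1 (0.064), PLEK (0.065) and LUC7L3 (0.067). With 3 libraries a group, such likeness reflects mainly a like size of difference between the groups on log2(value + 1). For low genes it depends on the pseudocount. With a pseudocount of 0.1 the log2 fold change was 2.43 for KRT86, 1.85 for NFKBIZ and 1.51 for BCL2A1. KRT86 had 3.12 ± 0.136 after amiodarone and 0.497 ± 0.0252 in controls, so it passed the filter on low values only through amiodarone libraries. NCF1 and KRT86 have near-identical copies, and 62.4% of the exonic bases of FTH1 lie opposite BEST1.

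The estimated depth, a rough figure, was 16200000 to 16600000 reads in the amiodarone libraries and 17400000 to 19100000 in the control libraries, so the groups did not overlap; its part in the results was not tested. Sums of the depth-scaled values were 568654 to 574483 in the amiodarone libraries and 534486 to 539030 in the control libraries. Log2 values correlated at 0.9975 to 0.9982 within groups and at 0.9590 to 0.9600 between them. All 7 promyelocyte markers checked were present, which fits the label, but their summed value was 3120 to 3178 after amiodarone and 6949 to 7071 in controls; their part in the results above was not tested. Most of that sum was MPO, the myeloperoxidase of neutrophil granules, at 2596 to 2646 after amiodarone and 5914 to 5998 in controls. The list did not move as one, since MYB was higher after amiodarone (120 to 127, against 111 to 113 in controls) and CD33 overlapped between the groups (91.9 to 99.03 after amiodarone and 89.3 to 93.5 in controls). In bulk RNA, fewer cells of a kind and less RNA per cell cannot be told apart. The 4 monocyte markers had a summed value of 120 to 128 after amiodarone and 99.99 to 109 in controls, nearly all of it LYZ, a gene that granulocyte precursors express too. CSF1R was lower after amiodarone, at 0.50 to 0.61 against 0.93 to 1.26 in controls, and reached 1 only in control libraries. CD14 and FCGR3A stayed under 1 in every library. No erythroid or fibroblast marker in the table reached 1, and the T cell, B cell and epithelial lists summed to at most 12.02 in any library.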

How the data were processed

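Per the submitters' processing notes, the tools were STAR 2.5.3a, fastp 0.23.4 and featureCounts, with GRCh38.p12 as the build; their order and settings, such as strand, annotation or handling of shared reads, are not stated in the notes. The table as deposited by the authors gives 1 expression value per gene and library, here read as RPKM (FPKM cannot be told apart). The values led to this reading: multiplied by the longest GENCODE 29 transcript they sum to 1.25 to 1.27 times the total of an RPKM table. From steps between low values the depth was estimated at 16200000 to 19100000 reads per library. This is rough, as 48.2% to 57.8% of those values fell within 0.15 of a whole number of steps, against 30% by chance alone had the step been set beforehand. Among genes at 1 or more in either library of a pair, no pair had more than 0.62% identical values.

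Values were used unscaled. A gene needed a value of 1 or more in 3 or more libraries; the 11445 that passed went into limma 3.58.1 in R 4.3.3 (eBayes with trend) on log2(value + 1), two-sided, with no covariate and Benjamini-Hochberg adjustment; this scale understates changes of low genes. The procedure was also run on simulated data in which only a small part of the genes changed. With 78.3% of tested genes called here, that run cannot speak for these calls. Folds are ratios of group means, errors are SD over 3 libraries. Current symbols came from RefSeq by Entrez ID (17640 of 17911 genes), positions and exon overlaps from GENCODE 29. The 10 genes, the lists, the promoter search and the tests were chosen with earlier results of these data known. Outside the 10, named genes are up to 3 called higher and 3 called lower by smallest adjusted p in each list, and the 5 nearest profiles; CD83 and the genes at low values in the closing section were named after their values were seen. In all, 16 alternatives were run.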

Additional observations from a re-analysis of the deposited data

How the results depend on the processing

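Of the 10 genes, 9 kept their direction and call under every alternative that could be run: pseudocounts of 0.1 and 5, no filter or a minimum of 5, 3 other scalings, limma without trend or with a robust prior, the replicate block and leaving out each library. With a pseudocount of 5 the log2 fold change was 0.86 for NFKBIZ (1.51 with a pseudocount of 1) and 0.22 for REL (0.40). REL had no value at a minimum of 5, which it did not pass. NFKBIB kept its direction but not its call. Its log2 fold change was 0.10 without a filter (adjusted p = 0.0527), 0.10 in limma without trend (0.0646), 0.10 with a replicate block (0.0529), 0.015 with equal sums (0.739) and, still called, 0.18 when scaled by the median of ratios or TMM-like factors, and it ranged from 0.079 to 0.14 when single libraries were left out. The counts of higher and lower genes over the whole table stayed within 1.5 times (6941 to 10264 genes called). Their balance depended on the scaling. Unscaled values gave 3832 genes higher and 5127 lower, equal sums 3099 and 5908, and the median of ratios 4561 and 4369. The shares of 33.5% higher and 44.8% lower over all tested genes thus hold for unscaled values only. The median of the 10 genes was lowest, at 0.59, with equal sums. The highest, 0.84 at a minimum of 5, leaves out REL, which did not pass. The median of the target list was lowest, at 0.57, with a pseudocount of 5 and highest with a pseudocount of 0.1. Deviations of same-numbered libraries correlated at -0.155, -0.018 and -0.023, which gives no sign of pairing. With 3 libraries a group these correlations constrain each other, so they cannot show that the libraries were unpaired. The replicate block left 8770 genes called. It changed no other call among the 10 genes. Depth is only an estimate, so counting error for low genes such as NFKBIZ and REL is approximate.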

Other observations

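Some target genes of NF-kB that are known for strong induction were barely present in these cells. IL6, a secondary response gene that needs IkB zeta in mouse cells, averaged 0.173 ± 0.112 after amiodarone and 0.0467 ± 0.0289 in controls (SD, n = 3 each), below the filter, in the libraries in which NFKBIZ was higher. LTA averaged 0.617 ± 0.202 after amiodarone and 0.290 ± 0.104 in controls. VCAM1, an adhesion gene of endothelium, was at most 0.04 in the amiodarone libraries and listed at 0 in every control library. None of the 3 was tested.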
